A study of Rattus norvegicus with 12 samples.

Results

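The K2P potassium channel genes code for the tandem-pore-domain channels that carry background, or leak, potassium current. Their levels were followed in the inferior colliculus (IC), the auditory centre of the midbrain, of rats deafened in 1 ear. Of 10 K2P genes listed, 9 had a probe named with that gene alone on the array: Kcnk1, Kcnk2, Kcnk3, Kcnk4, Kcnk6, Kcnk9, Kcnk10, Kcnk12 and Kcnk15. They are 9 of 18166 genes measured. Kcnk13 is not analysed here. Each gene was read from its brightest probe by mean over the 12 arrays, a choice that arose only for Kcnk6, which had 2 probes. Intensities thus chose the Kcnk6 probe, and no gene was selected by a threshold. The left IC difference of Kcnk15 was already known from these data when the family was chosen, so it and the comparisons that share its arrays are given as a description.

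The 12 arrays form 4 groups of 3, all from SD rats: the left IC of deaf rats, the left IC of control rats, the right IC of deaf rats and the right IC of control rats. Deaf rats had the right cochlea ablated, and controls had a sham operation in which the skin was opened behind the ear but the bulla was not drilled. The design had 20 rats per arm, with tissue taken 2 weeks after surgery. The sources used here do not give the rats' age or sex, how many of the rats went onto arrays, whether an array holds 1 rat or several, or whether left and right arrays come from the same rats. Each p-value therefore reflects only how far these arrays differ among themselves, and that spread may be technical in part. The labels conflict on tissue and on treatment: the title of the series and the sample descriptions speak of hippocampus, and the descriptions call the deaf arm a noise group. Sample titles, source names and the design text give IC and single-sided deafness, and the groups here follow them, so each deaf minus control value rests on those labels. Of 10 tectal markers measured, 0 had a mean below the lower quartile of all gene means (4.48), against 2 of 8 hippocampal and forebrain markers (Neurod6 and Tbr1). A share of 2 in 8 is what a lower quartile gives over all genes by definition. These counts therefore do not settle which tissue was used. Values are log2 intensities as deposited by the authors, with array medians of 5.34. A log2 difference is the difference of 2 group means, with its SE (standard error), and each group has n = 3. The number of arrays limits the precision. Detection calls were not used here, so a dim gene's difference is given as measured.

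K2P subunits assemble as dimers, each subunit bringing a pair of pore loops, and the channels are open near the resting potential, where they set input resistance and excitability. The TASK branch is sensitive to extracellular acid and is inhibited by receptors coupled to Gq. The TREK branch responds to stretch, temperature and fatty acids. TASK-5, encoded by Kcnk15, gives no current of its own in expression systems, and in rat brain its mRNA is known for its concentration in central auditory nuclei. Because ascending auditory fibres cross, the ablated right ear drives mainly the left IC, and the intact left ear mainly the right IC.

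Kcnk15 (TASK-5, Entrez 156873) was lower in the left IC of deaf rats. Its log2 intensity was 6.31, 6.50 and 6.32 on left deaf arrays 1, 2 and 3, against 6.94, 6.77 and 6.98 on the left control arrays. All 3 deaf arrays lay below all 3 controls, with a gap between the groups wider than the range within either. The log2 difference was -0.52 (SE 0.11, 95% interval -0.77 to -0.27), which is 0.697 of the control intensity (0.587 to 0.828). Kcnk15 ranked 12 of 18166 genes by p-value, but did not pass over all genes (limma adjusted p = 0.899). In bulk tissue, fewer cells of a type and less RNA per cell cannot be told apart.

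**Figure D1:**
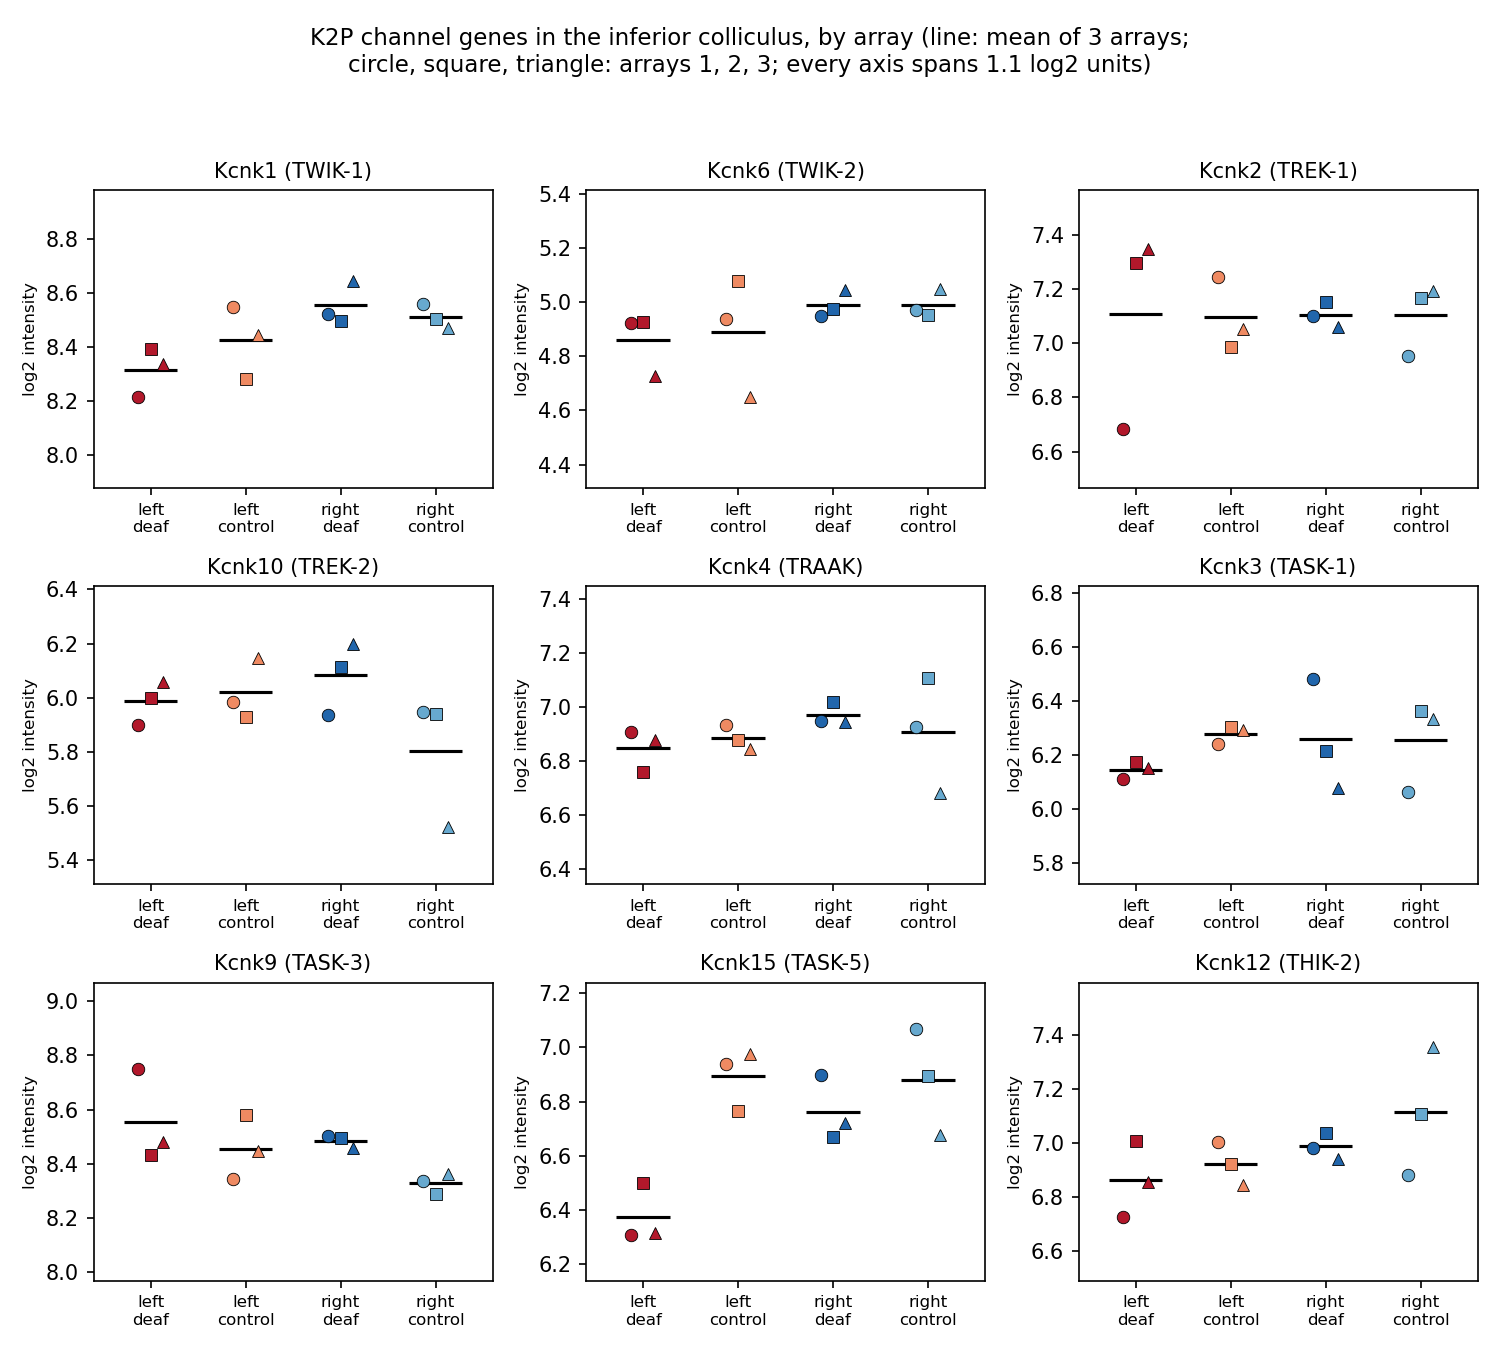
Log2 intensity of the 9 K2P genes on each array (vertical axis, with the same span in every panel), with left deaf, left control, right deaf and right control along the horizontal axis. Lines are means of 3 arrays, and circles, squares and triangles are arrays 1, 2 and 3. Kcnk15 sits at 6.31 to 6.50 in left deaf, below every array of the other 3 groups, whose lowest value is 6.67.

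In the right IC the Kcnk15 arrays overlapped. Deaf arrays were at 6.90, 6.67 and 6.72, against 7.07, 6.89 and 6.68 in right control, a log2 difference of -0.12 (SE 0.11, 95% interval -0.37 to 0.13). Across the 4 groups the mean was lowest in left deaf (6.37 ± 0.11, SD, n = 3), followed by right deaf (6.76 ± 0.12), right control (6.88 ± 0.20) and left control (6.89 ± 0.11). Left deaf did not overlap with right deaf, its neighbour in that order, whereas the 3 higher groups overlapped with each other. For each of the other 8 genes, groups that were neighbours in the order of their means overlapped. The left difference minus the right difference was -0.40 (SE 0.16, 95% interval -0.75 to -0.052), and it did not pass over all genes (limma adjusted p = 1.00). The mean of the left and right differences was -0.32 (SE 0.080, limma adjusted p = 0.998). Both values contain the left difference that was known beforehand, so they are given as a description.

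With each array left out in turn, the left difference of Kcnk15 ranged from -0.58 (without left control 2) to -0.48 (without left control 3). Its adjusted p lay between 0.313 and 1.00 over all 22 alternatives, the lowest with array weights. The right difference was less steady: it was -0.024 without right control 1, -0.22 without right control 3, -0.19 without right deaf 1 and -0.071 without right deaf 2. Control 3 was thus the right control array nearest to the deaf values and control 1 the farthest.

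**Figure D2:**
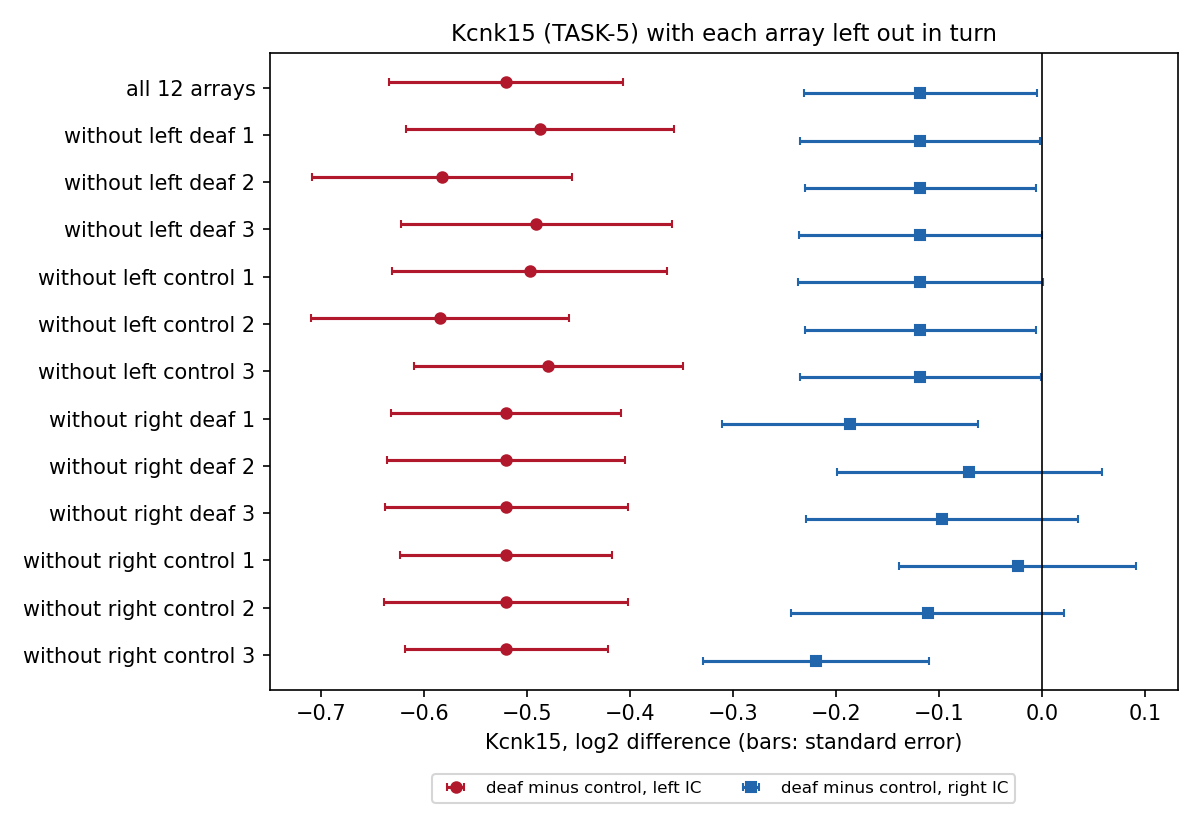
Log2 difference of Kcnk15, deaf minus control (horizontal axis, bars: SE), from all 12 arrays and with each array left out (rows), in the left IC (circles) and right IC (squares). On the left the values stay between -0.58 and -0.48, and on the right between -0.22 and -0.024.

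Markers of cell types were read on the same arrays. The mean level of 7 oligodendrocyte markers was 9.96 to 10.04 on left deaf arrays and 10.09 to 10.13 on left control arrays, with 6 of 7 markers lower in deaf. On the right that list was at 9.98 to 10.08 in deaf and 10.12 to 10.27 in control arrays, with 7 of 7 lower. The oligodendrocyte list thus did not overlap between deaf and control arrays on either side. The Kcnk15 difference was -0.52 on the left and -0.12 on the right, where its arrays overlapped. Neuronal markers overlapped, at 10.05 to 10.17 in left deaf and 10.12 to 10.16 in left control, and 5 of 8 were higher in deaf. Tectal markers also overlapped, at 6.93 to 7.08 in left deaf and 6.96 to 7.00 in left control. Astrocyte markers were lower in 6 of 7 (10.02 to 10.18 in left deaf, 10.07 to 10.17 in left control), and choroid plexus and ependymal markers in 5 of 7 (5.39 to 5.61 in left deaf, 5.55 to 5.65 in left control). Microglial markers were split, with 4 of 8 lower. Meningeal markers were higher in 8 of 8 in left deaf, at 6.51 to 7.38, against 6.18 to 6.78 in left control; the highest array was left deaf 2, without which the Kcnk15 difference was -0.58. Of the meningeal markers 1 of 8, and of the cerebellar markers 1 of 11, had a mean below the lower quartile of gene means. The part of these markers in the Kcnk15 difference was not tested.

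**Figure D3:**
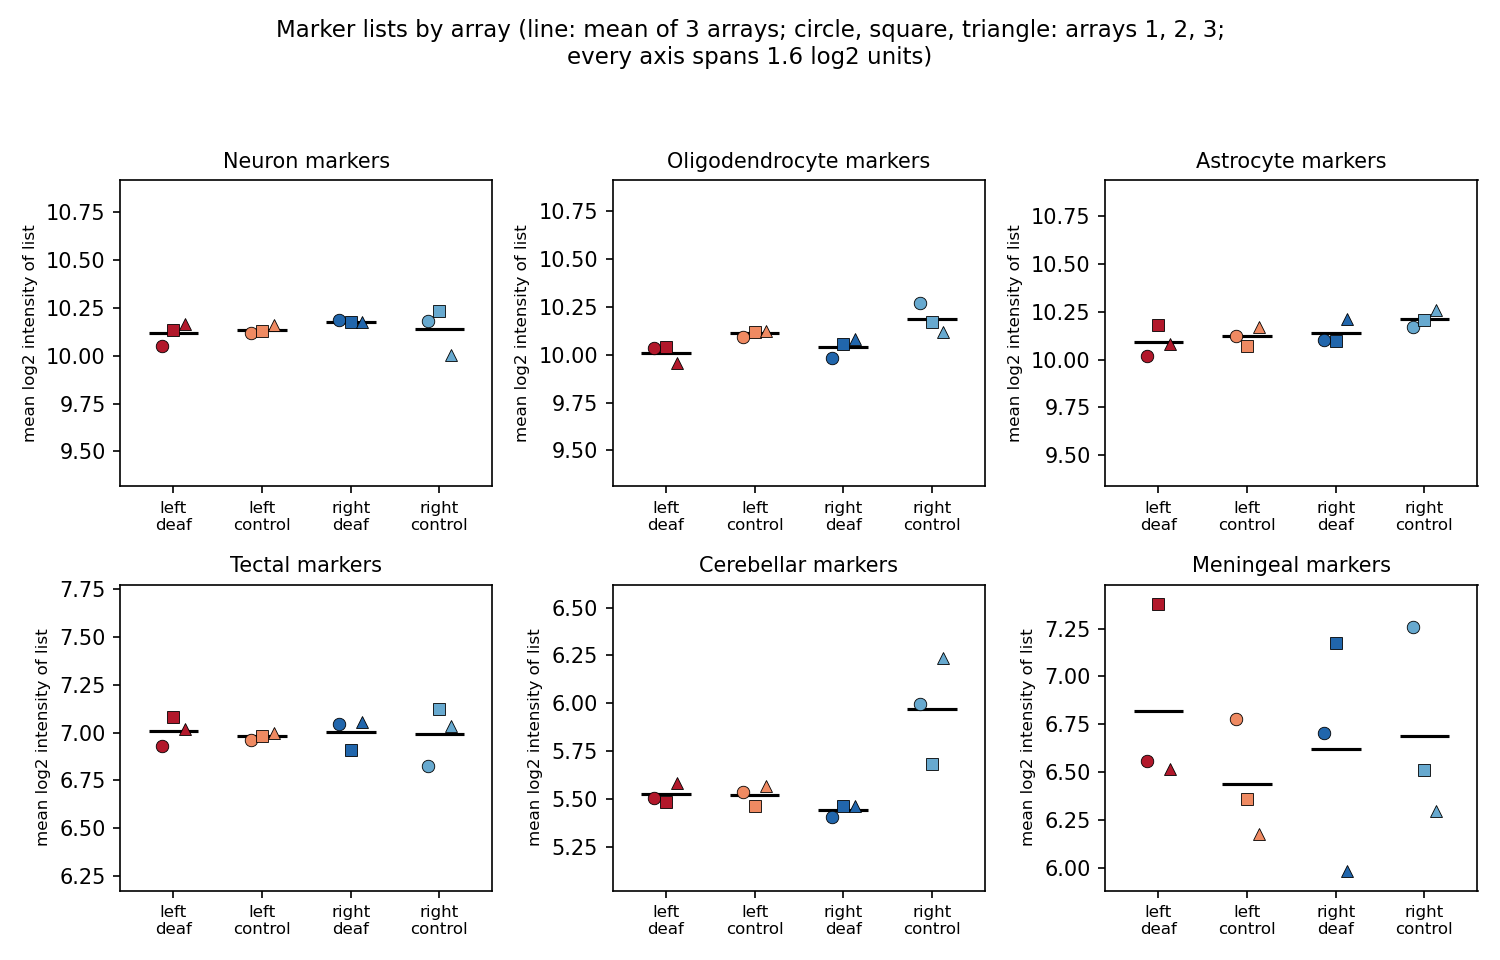
Mean log2 intensity of 6 marker lists on each array (vertical axis, with the same span in every panel), with left deaf, left control, right deaf and right control along the horizontal axis. Lines are means of 3 arrays. Cerebellar markers are at 5.68 to 6.24 in right control and at 5.58 or lower elsewhere, and left deaf 2 has the highest meningeal level, 7.38.

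The other TASK genes, both coding for acid-sensitive channels, had smaller differences. Kcnk3 (TASK-1) was at 6.11, 6.17 and 6.15 in left deaf and at 6.24, 6.31 and 6.29 in left control. These arrays did not overlap, and the groups' ranges were narrow, but the difference of -0.13 (SE 0.11, 95% interval -0.37 to 0.11) was small beside the spread of Kcnk3 in the right IC. There the deaf arrays were at 6.48, 6.21 and 6.08, against 6.07, 6.36 and 6.33 in right control, a difference of 0.0036 (SE 0.11).

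Kcnk9 (TASK-3), abundant in cerebellar granule neurons, had its non-overlapping arrays on the other side. In right deaf it was at 8.50, 8.50 and 8.46, and in right control at 8.34, 8.29 and 8.36. The difference was 0.16 (SE 0.096, 95% interval -0.054 to 0.36). In left deaf it was at 8.75, 8.43 and 8.48, against 8.34, 8.58 and 8.45 in left control, a difference of 0.098 (SE 0.096) that was 0.0012 without left deaf 1. The mean of Kcnk9 was lowest in right control (8.33). The mean level of cerebellar markers was 5.40 to 5.46 in right deaf and 5.68 to 6.24 in right control, with 10 of 11 lower in deaf. In left deaf these markers were at 5.48 to 5.58 and in left control at 5.46 to 5.57. Other lists also separated the right groups. Hippocampal and forebrain markers were at 5.17 to 5.4155 in right deaf and 5.4163 to 5.56 in right control (7 of 8 lower). These ranges nearly touched. Microglial markers were at 6.34 to 6.46 in right deaf and 6.50 to 6.56 in right control (7 of 8 lower). Choroid plexus and ependymal markers were at 5.55 to 5.66 in right deaf and 5.30 to 5.51 in right control (5 of 7 higher). The part of these lists, and of the oligodendrocyte markers given above, in the right IC differences of Kcnk9 and of Kcnk10 was not tested.

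Of the TREK branch, Kcnk10 (TREK-2), a stretch- and lipid-sensitive channel gene, had higher values in the right IC of deaf rats. It was at 5.94, 6.11 and 6.20 in right deaf, against 5.95, 5.94 and 5.52 in right control. Right control 3 was far below the other arrays, and the other 2 controls lay beside right deaf 1. The difference of 0.28 (SE 0.12, 95% interval 0.012 to 0.55, limma adjusted p = 1.00) was 0.14 without right control 3, the array with the highest cerebellar level. In left deaf Kcnk10 ran from 5.90 to 6.06, within its range of 5.93 to 6.15 in left control apart from the lowest array, and the difference was -0.035 (SE 0.12).

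Kcnk2 (TREK-1), the mechanosensitive channel gene of that branch also expressed in astrocytes, had group means from 7.10 to 7.11. Left deaf 1 stood apart at 6.68, while left deaf 2 and 3 were at 7.30 and 7.35, and the left controls were at 7.25, 6.99 and 7.05. The left difference of 0.014 (SE 0.15) thus became 0.23 without left deaf 1. On the right the 3 deaf arrays ran from 7.06 to 7.15 and the 3 controls from 6.95 to 7.19.

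Kcnk4 (TRAAK), a channel gene whose protein is known from nodes of Ranvier, differed by -0.037 on the left (SE 0.10) and 0.065 on the right (SE 0.10). Its arrays ran from 6.76 to 6.91 in left deaf and from 6.85 to 6.93 in left control. They ran from 6.94 to 7.02 in right deaf and from 6.68 to 7.11 in right control, and without right control 3, the lowest, the right difference was -0.047.

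In the TWIK branch, Kcnk1 (TWIK-1), a weakly conducting channel gene of neurons and astrocytes, was at 8.21, 8.39 and 8.34 in left deaf and at 8.55, 8.28 and 8.45 in left control. The groups overlapped, with a difference of -0.11 (SE 0.090, 95% interval -0.31 to 0.086). In right deaf it was at 8.52, 8.50 and 8.65, against 8.56, 8.50 and 8.47 in right control, a difference of 0.043 (SE 0.090). Kcnk6 (TWIK-2), an endosomal and lysosomal channel gene, was at 4.73 to 4.93 in left deaf and 4.65 to 5.08 in left control, a difference of -0.030 (SE 0.11). Its right difference was -0.0015 (SE 0.11), from arrays at 4.95 to 5.04 in deaf and 4.95 to 5.05 in control rats. The dimmer probe of Kcnk6 gave -0.016 (SE 0.22) on the left and -0.088 (SE 0.22) on the right.

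The THIK branch was represented by Kcnk12 (THIK-2), a subunit gene that gives little current by itself. It was at 6.73, 7.01 and 6.86 in left deaf, against 7.00, 6.92 and 6.84 in left control, a difference of -0.059 (SE 0.12). In right deaf it was at 6.98, 7.04 and 6.94, against 6.88, 7.11 and 7.36 in right control. Right control 3 was its highest array, and the right difference of -0.13 (SE 0.12) was -0.0087 without it. The same control array was thus the lowest for Kcnk10 and the highest for Kcnk12.

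Over the family, 0 of 9 genes passed in any of the 6 contrasts with limma, where 0% of all genes passed in each. On the left, 1 of the 9 had an unadjusted p under 0.05, Kcnk15, beside 3.69% of all genes (670). Arrays did not overlap for 2 of 9 on the left, Kcnk15 and Kcnk3, both lower in deaf, beside 10.3% of all genes (5.7% lower). On the right, 1 of 9 had an unadjusted p under 0.05, Kcnk10, beside 4.31% of all genes (783), and 1 of 9 had arrays that did not overlap, Kcnk9, higher in deaf, beside 7.48% (3.64% higher). Counts of 1 and 2 among 9 genes are too few to read as a result about the family. The left counts also include Kcnk15, which was known beforehand, so they cannot be set against chance. The median difference of the 9 was -0.037 on the left and 0.0036 on the right, beside -0.0051 and 0.0014 over all genes.

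The intervals bound the differences only as far as the spread between these arrays goes. Since an array may hold 1 rat or several, they do not bound differences between deaf and control rats. On the left, 8 of the 9 intervals lay wholly within 0.5 log2 units of 0, the exception being Kcnk15. On the right 8 of 9 did too, the exception being Kcnk10, whose upper bound was 0.55. The half-width of the intervals ran from 0.20 for Kcnk1 to 0.34 for Kcnk2, so that differences smaller than a gene's half-width could not be told from 0. Larger differences could also fail to pass over all genes, as that of Kcnk15 on the left did.

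Of the family genes outside the 9, Kcnk7, Kcnk5, Kcnk16 and Kcnk18 were measured. Kcnk16 (TALK-1), a channel gene of pancreatic islets, differed by -0.16 on the left (SE 0.16) and -0.23 on the right (SE 0.16). Kcnk5 (TASK-2), an alkaline-activated channel gene, differed by -0.021 (SE 0.14) and -0.094 (SE 0.14). Kcnk18 (TRESK), a calcineurin-regulated channel gene of sensory neurons, differed by -0.030 on the left and 0.14 on the right (SE 0.21 each). Kcnk7, a silent relative of TWIK-1, differed by 0.10 and -0.11 (SE 0.21 each). For these 4 genes the arrays overlapped on both sides, beside 10.3% of all genes without overlap on the left and 7.48% on the right. An unadjusted p under 0.05 was found for 0 of 4, beside 3.69% and 4.31% of all genes, so that counts of 0 lie near the shares over all genes.

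**Figure D4:**
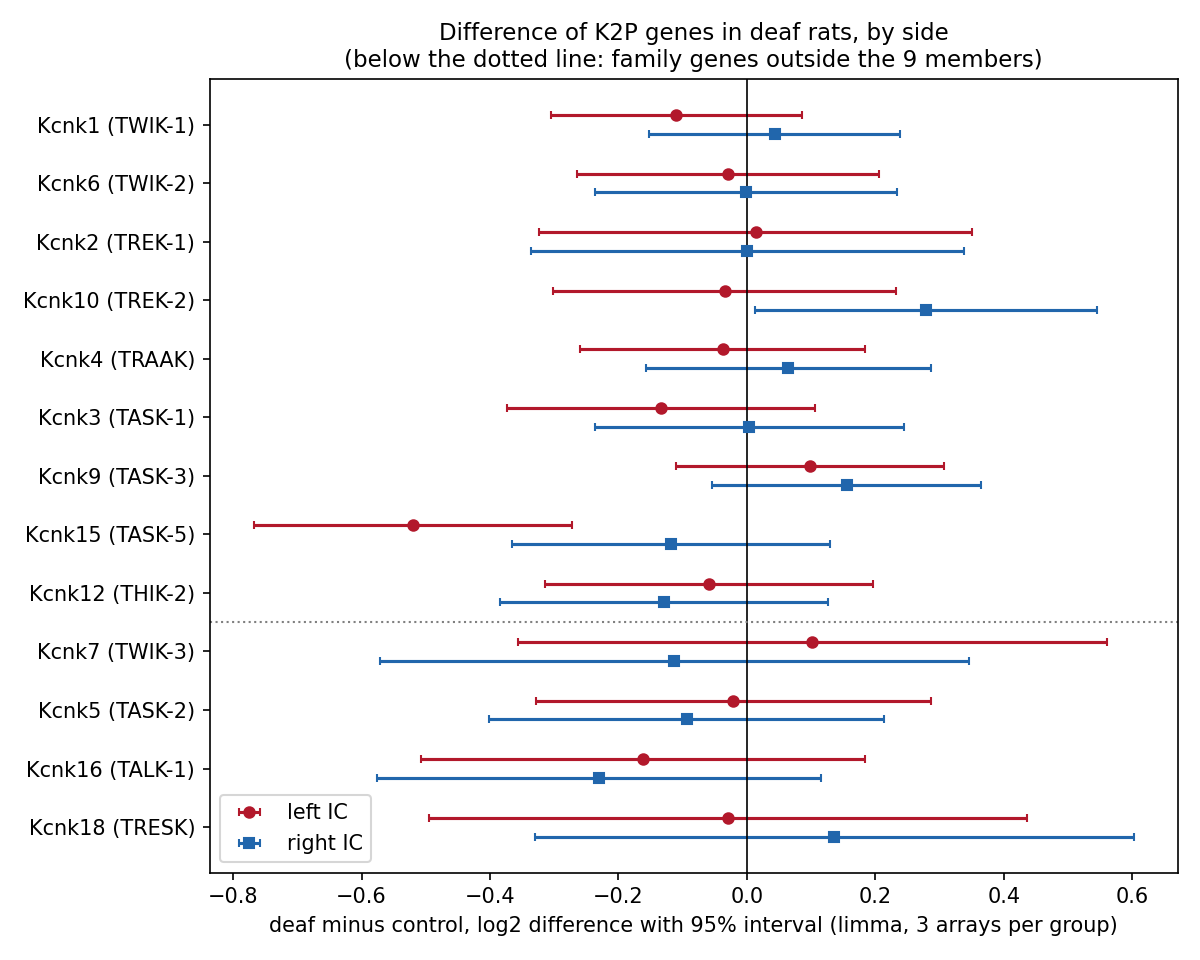
Log2 difference, deaf minus control, of 13 K2P genes (rows) with its 95% interval (horizontal axis), in the left IC (circles) and right IC (squares); the 4 genes under the dotted line are outside the 9. The interval of Kcnk15 on the left, -0.77 to -0.27, and that of Kcnk10 on the right, 0.012 to 0.55, do not include 0, and the other 24 intervals include 0.

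Left and right IC were also set against each other within each arm. In deaf rats the left arrays lay below the right arrays for 4 of 9, Kcnk15, Kcnk1, Kcnk4 and Kcnk6, beside 4.58% of all genes lower in this way (8.31% in either direction). The left minus right difference was -0.39 for Kcnk15 (SE 0.11), -0.24 for Kcnk1 (SE 0.090, 95% interval -0.43 to -0.043), -0.13 for Kcnk6 (SE 0.11) and -0.12 for Kcnk4 (SE 0.10). For Kcnk6 the dimmer probe gave the other sign, 0.052 (SE 0.22). None of them passed over all genes (limma adjusted p = 1.00 for each). The unadjusted p was under 0.05 for 2 of 9, Kcnk15 and Kcnk1, beside 3.34% of all genes (607). These differences share the left deaf arrays with the left deaf against control differences given above. The low left deaf values of Kcnk15 were known when the family was chosen. The counts and the median of this contrast therefore cannot be set against chance, and are given as a description. The median over the 9 was -0.12, beside -0.0057 over all genes, and leaving out any 1 array kept it between -0.14 and -0.096. The 4 family genes outside the 9 did not share this direction: 2 were higher and 2 lower on the left, with a median of 0.0052. Arrays did not overlap for 0 of these 4.

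In control rats the arrays of left and right overlapped for all 9 genes, beside 9.8% of all genes without overlap. Kcnk15 differed there by 0.014 (SE 0.11), left minus right, and its 2 control groups overlapped. Kcnk10 differed by 0.22 (SE 0.12) and Kcnk12 by -0.19 (SE 0.12), and without right control 3 these were 0.077 and -0.073. The unadjusted p was under 0.05 for 0 of 9, beside 4.95% of all genes (900). In the contrast of side by deafness, Kcnk15 was the single member with an unadjusted p under 0.05, beside 3.42% of all genes (622). Kcnk10 differed there by -0.31 (SE 0.17), which was -0.17 without right control 3. For the mean of both sides the member with an unadjusted p under 0.05 was again Kcnk15, beside 4.53% of all genes (823). For Kcnk15 both contrasts contain the left difference known beforehand, so they add no separate support. For the mean of both sides the 6 deaf and 6 control arrays overlapped for all 9 genes, beside 0.27% of all genes without overlap.

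Genes that act on K2P channels or share their work were read from 3 lists. The genes named from each were picked for the smallest p on a side, so separated arrays in them are partly built in. Over all genes, arrays did not overlap for 10.3% on the left and 7.48% on the right. Of 13 measured proteins that bind K2P subunits, 6 were higher and 7 lower in left deaf (median -0.023), and 8 higher and 5 lower in right deaf (median 0.0075). S100a10 (p11), an adaptor that binds TASK-1, was at 5.34 to 5.66 in left deaf and 5.83 to 6.13 in left control, a difference of -0.46 (SE 0.29). On the right it differed by -0.41 (SE 0.29), from arrays that overlapped. Akap5, an anchoring protein that binds TREK-1, differed by 0.23 on the left (SE 0.087) and 0.051 on the right. Pld2 and Stx8, a phospholipase and a syntaxin that bind TREK and TASK channels, differed by 0.19 (SE 0.084) and 0.18 (SE 0.096) on the right.

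Among 16 measured receptors and effectors of the Gq pathway, which lowers TASK and TREK currents, 6 were higher and 10 lower in left deaf, and 7 higher and 9 lower in right deaf. The serotonin receptor gene Htr2a was at 6.77 to 6.87 in left deaf and 7.03 to 7.22 in left control, a difference of -0.28 (SE 0.081), and differed by -0.055 on the right. Adra1b, an adrenergic receptor gene, differed by -0.24 on the left (SE 0.11). Trhr, the thyrotropin-releasing hormone receptor gene, and Adra1d differed by -0.37 (SE 0.15) and 0.18 (SE 0.11) on the right.

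Of 12 other measured genes of resting conductances, 5 were higher and 7 lower on each side. Kcnj16 and Kcnj10, which code for the inward-rectifier subunits Kir5.1 and Kir4.1 of astrocytes and oligodendrocytes, differed by -0.32 (SE 0.10) and -0.16 (SE 0.074) on the left. Kcnj16 was at 8.25 to 8.50 in left deaf and 8.56 to 8.81 in left control. Kcnj10 was at 8.67 to 8.80 in left deaf and 8.85 to 8.93 in left control. Neither gene's groups overlapped, beside 10.3% of all genes without overlap on the left. On the right Kcnj16 differed by -0.20 (SE 0.10), Kcnj10 by -0.0037 and Nalf1, a subunit gene of the sodium leak channel, by 0.22 (SE 0.13). In each of the 3 lists 1 gene had an unadjusted p under 0.05 on the left (Akap5, Htr2a and Kcnj16), beside 3.69% of all genes. On the right these were Pld2, Trhr and none of the resting conductances, beside 4.31% of all genes. Counts of 0 or 1 in lists of this size lie near those shares. Over all genes none of the genes named from the lists passed (limma adjusted p = 1.00 for each).

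The genes whose values followed those of Kcnk15 most closely over the 12 arrays, out of 9009 genes brighter than the median, were Arf3 (Pearson r = 0.885), Nr2c2ap (0.873), S1pr5 (0.855), Gla (0.852) and Spred3 (0.841). All 5 had a lower mean in left deaf than in left control, with log2 differences of -0.30, -0.20, -0.19, -0.25 and -0.26. Kcnk15 was lowest on the left deaf arrays, so this direction is partly built into the choice. Those nearest to Kcnk9 were Rev1 (0.940), Hmgn3 (0.935), Ppid (0.920), Akap8l (0.910) and Snhg11 (0.909). Those nearest to Kcnk1 were Anxa11 (0.896), Rnf144b (0.870), Aldoc (0.866), Ctnnbip1 (0.864) and Slc6a9 (0.860), of which Aldoc is an astrocyte marker. These are the highest of many correlations over arrays that share their 4 groups, and are given as a description.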

How the data were processed

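Per the labels' protocols, RNA was turned into biotin-labelled single-stranded cDNA and read on 1-colour Affymetrix arrays, 3 per group. The deposited values are log2 intensities with array medians of 5.34; the sources used here name no normalization or summarisation method. Of 29489 probes, 18511 had 1 gene symbol in the platform annotation, 575 had several and 10403 had none. The brightest probe per gene gave 18166 genes, with no filter on dim genes. Limma 3.58.1 in R 4.3.3 fitted 4 group means to all genes and tested 6 contrasts, two-sided, with Benjamini-Hochberg adjustment over all genes and a threshold of 0.05. The fit was tested on simulated data. Alternatives covered normalization, centring, the probe rule, dim genes, the variance model, array weights, blocks and each array left out.

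The members and lists were chosen with earlier results of these data known. The genes named were all K2P genes, the 2 genes of smallest p per list and side, and the 5 genes of highest r with Kcnk15 and with the 2 members of highest mean level, Kcnk9 and Kcnk1. Unnamed and predicted genes, and those of the Olr, Vom and Mir families, were passed over in the last. Whether the left and right array of 1 arm and number share rats is unknown. Their deviations from the group means correlated at r above 0.1 in 2 of 6 pairs (lowest -0.056, highest 0.15), and in 3 of 18 pairs over all same-numbered arrays (lowest -0.19, highest 0.16), so the numbers were not taken as pairs. With such left and right arrays as a random block (correlation 0.036), the SE of Kcnk15 was 0.11 for left minus right in deaf rats, 0.16 for side by deafness and 0.082 for the mean of sides.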

Additional observations from a re-analysis of the deposited data

How the results depend on the processing

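The 22 alternatives left 0 of the 9 K2P genes past the threshold in any of the 6 contrasts. The count over all genes was 0 in each contrast and became 1 on the left among genes above the median level, with a variance trend and robust estimation, and without left deaf 3 (Vgf each time); over the arrays left out it ran from 0 to 1. It became 1 for the mean of sides without right control 3 (Clec2d2; 0 to 1). In deaf rats, left against right, it became 1 among genes above the median level (Vgf) and 2 with the trend (Vgf and Or52a5b). With the replicate block it became 1 in control rats, left against right, and 1 for side by deafness (RGD1565183 both times). These genes are named after their values were seen. Under the replicate block Kcnk15 on the left was at -0.52, and no call of a K2P gene changed. Of 1158 recomputed differences of the 9 genes, 1155 moved by less than the spread between arrays. Many of these could not move. Leaving out an array outside a contrast, or changing only the variance model, keeps the group means compared. The count is therefore no measure of steadiness. The 3 that moved more were those of Kcnk2 without left deaf 1. Another sign was seen in 65 of the 1158, all for differences whose 95% interval included 0. Among genes above the median level Kcnk6 and Kcnk10 had no value. No background signal was used here, so how far it limits the dimmer genes was not measured.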
